A study of Homo sapiens with 17 samples.

Results

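The ERK pathway switches on genes, some of which restrain it in turn. Here 10 of its target genes, called feedback genes below, were followed in Ishikawa cells. This line comes from a human endometrial adenocarcinoma and is used as a model of the endometrial epithelium. The 10 genes were taken as a fixed list of symbols, out of 60662 genes in the count table, and all 10 were found in it. The list was chosen with earlier results of these data known. Its counts beside the shares of all genes are therefore descriptions and not independent support. DUSP1, DUSP4, DUSP5 and DUSP6 encode dual-specificity phosphatases of the MAP kinases. SPRY2 and SPRY4 encode Sproutys and SPRED1 and SPRED2 encode Sprouty-related proteins, which act between receptor tyrosine kinases and RAF. ETV4 and ETV5 encode ETS transcription factors of the PEA3 group.

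When a growth factor binds its receptor tyrosine kinase, RAS, RAF, MEK and ERK are activated in turn, and ERK then phosphorylates transcription factors in the nucleus. Within minutes immediate early genes such as FOS and EGR1 are transcribed, and the phosphatases, Sproutys and ETV genes follow. The phosphatases remove phosphate from MAP kinases, and the Sproutys and Sprouty-related proteins block the activation of RAS and RAF. The ETV products are transcription factors. The transcript levels of these genes are therefore often read as a record of ERK pathway output, although each also has other inputs.

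RNA sequencing covered 17 cultures in 6 groups, each harvested after 24 h. The groups were control cultures in plain medium (n = 3), Nap vehicle cultures (n = 2), vehicle control cultures with Nap and ethanol (n = 3) and P4 treated cultures with Nap and progesterone (n = 3). The remaining 6 cultures received recombinant human PSAT1, 3 of them with progesterone as well. All groups shared the same line and the same medium with charcoal-stripped serum. Nap is not defined in the sources used here. Ethanol is given as 70%, although a figure legend of the paper gives a lower percentage. The highest P4 concentration that the labels list is 1.0 mg/ml, whereas parts of the paper use micrograms. Ethanol is named for the vehicle control and not for the P4 treated cultures, so ethanol and P4 cannot be told apart in their comparison if it was absent from the latter.

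The labels of the PSAT1 cultures contradict each other. In 3 of them the title names PSAT1 alone and the column name adds P4, and these are called PSAT1 set A. In the other 3 the title adds P4 and the column name does not, and these are called PSAT1 set B. Both labels keep the same cultures together, so the sets can be compared, but which set received P4 was not decided here. The cultures are labelled as biological replicates of a single line, and p-values measure the spread between such cultures.

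Library totals ranged from 4999521 to 19704493 counts with a median of 12964362, and the lowest belonged to vehicle control replicate 1. Epithelial transcripts summed to between 1196 and 1678 counts per 1000000 (CPM) in every culture, over 7 markers, as the epithelial label of the line requires. Of 6 leukocyte and 5 endothelial markers, none passed the filter on low counts in the P4 and vehicle control comparison, and the endothelial cadherin CDH5 was at 0 in all 17 libraries. Over 7 stromal markers the sums lay between 344 and 359 CPM in the vehicle control and between 127 and 180 CPM with P4. DCN and PDGFRB were at 0 in the P4 treated cultures. Both were too low to pass the filter in that comparison and also in vehicle control against control. The 7 epithelial markers also summed lower with P4, at 1198 to 1332 CPM against 1591 to 1616 CPM in the vehicle control. In the test described below, 5 of these 7 were called lower and 1 higher, beside 26.5% lower and 26.6% higher over all genes tested. The part of these shifts in the results below was not tested. In bulk RNA, fewer cells with a transcript and less transcript per cell cannot be told apart.

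On GRCh38 the phosphatase genes other than DUSP4 lie at chr5:172768090-172771195 (DUSP1), chr10:110497838-110511544 (DUSP5) and chr12:89347232-89353271 (DUSP6). The Sprouty genes lie at chr13:80335976-80340951 (SPRY2) and chr5:142310427-142326455 (SPRY4). SPRED1 and SPRED2 are at chr15:38252326-38357249 and chr2:65310851-65432637. ETV4 is at chr17:43527844-43579620 and ETV5 at chr3:186046308-186110318. All 10 are protein-coding and the counts are over their exons, UTRs included. Exons of 7 of them are shared with no other annotated gene. DUSP6 shares 1875 exonic bases with AC024909.2 on the opposite strand, which had 143 counts over all libraries against 41541 for DUSP6. ETV4 shares 68 bases with DHX8 on the opposite strand, a gene with 24465 counts against 2804 for ETV4. The strand setting of the counting is not given in the sources used here, so a small part of the ETV4 counts is uncertain. ETV5 shares 164 bases with DGKG on the same strand, which had 23 counts.

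Promoter sequence from RefSeq on GRCh38.p14 was matched for 6 of the 10 genes, in 9 windows from 250 bases before to 50 bases after a transcription start. No window was matched for DUSP4, DUSP5, ETV4 and ETV5, so the motif results do not cover them. On both strands 6 motifs were searched. The cyclic AMP response element TGACGTCA occurred in the DUSP1 window, at bases -125 to -118 from the start, and in 1.85% of all 35116 promoter windows. The AP-1 site TGANTCA occurred at an internal start of SPRED2, at bases -6 to 1 and again at 35 to 41, and in 7.71% of all windows. The same SPRED2 window held TGATGNAA, present in 3.62% of all windows. No member window held a CArG box (1.29% of all windows), the ETS site CCGGAAGT (4.14%) or the full palindromic steroid response element (0.00285%, a single window). A match is a run of letters and not a measured site. DUSP1 and SPRY2, whose levels rose in the vehicle control, are shown over the 250 bases before the start, DUSP1 with its motif in capitals and SPRY2 as a window with none of the 6 motifs. DUSP1 covers chr5:172771196-172771445 and SPRY2 covers chr13:80341127-80341376, both on the minus strand and written 5′ to 3′.
DUSP1: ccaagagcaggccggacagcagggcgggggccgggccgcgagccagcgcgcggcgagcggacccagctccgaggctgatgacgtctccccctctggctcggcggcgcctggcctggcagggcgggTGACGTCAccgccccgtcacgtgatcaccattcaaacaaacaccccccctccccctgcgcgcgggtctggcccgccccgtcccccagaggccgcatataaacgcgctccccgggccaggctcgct
SPRY2: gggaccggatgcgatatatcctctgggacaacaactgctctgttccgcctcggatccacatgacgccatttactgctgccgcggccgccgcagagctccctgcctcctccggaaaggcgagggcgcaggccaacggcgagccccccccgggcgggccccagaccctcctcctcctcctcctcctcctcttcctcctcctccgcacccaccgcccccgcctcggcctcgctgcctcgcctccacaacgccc

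Control cultures differed widely between the 10 genes in their level per exon length. DUSP6, the cytoplasmic ERK phosphatase, was highest in all 6 groups, with 30.3 ± 4.62 RPKM (CPM per kilobase of exon, SD, n = 3) in the control. SPRED1 at 8.35 ± 0.98, ETV5 at 6.48 ± 0.70, SPRY2 at 5.74 ± 0.82 and SPRED2 at 5.33 ± 0.45 RPKM followed. From ETV5 to SPRED2, neighbours in this order lay within their combined spread. SPRY4 and ETV4 were close to each other at 2.87 ± 1.12 and 2.84 ± 0.35 RPKM. DUSP1 with 0.90 ± 0.11 and DUSP5 with 0.72 ± 0.08 RPKM were low, and DUSP4 was nearly silent at 0.043 ± 0.026 RPKM, which rested on 3 to 7 counts per library. In P4 treated cultures DUSP6 remained first at 61.3 ± 5.76 RPKM and DUSP4 last at 0.28 ± 0.02 RPKM. ETV5 at 24.1 ± 1.44 RPKM and SPRY2 at 18.7 ± 1.93 RPKM came next, ahead of SPRED1 at 12.2 ± 0.20 RPKM. DUSP5 was at rank 9 of 10 in the control and already at rank 6 in the vehicle control, at 3.9 ± 0.88 RPKM. With P4 it was at rank 5, at 11.3 ± 4.09 RPKM. Its SD there spans both neighbours, SPRED1 above and SPRY4 (10.1 ± 0.90 RPKM) below.

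**Figure D1:**
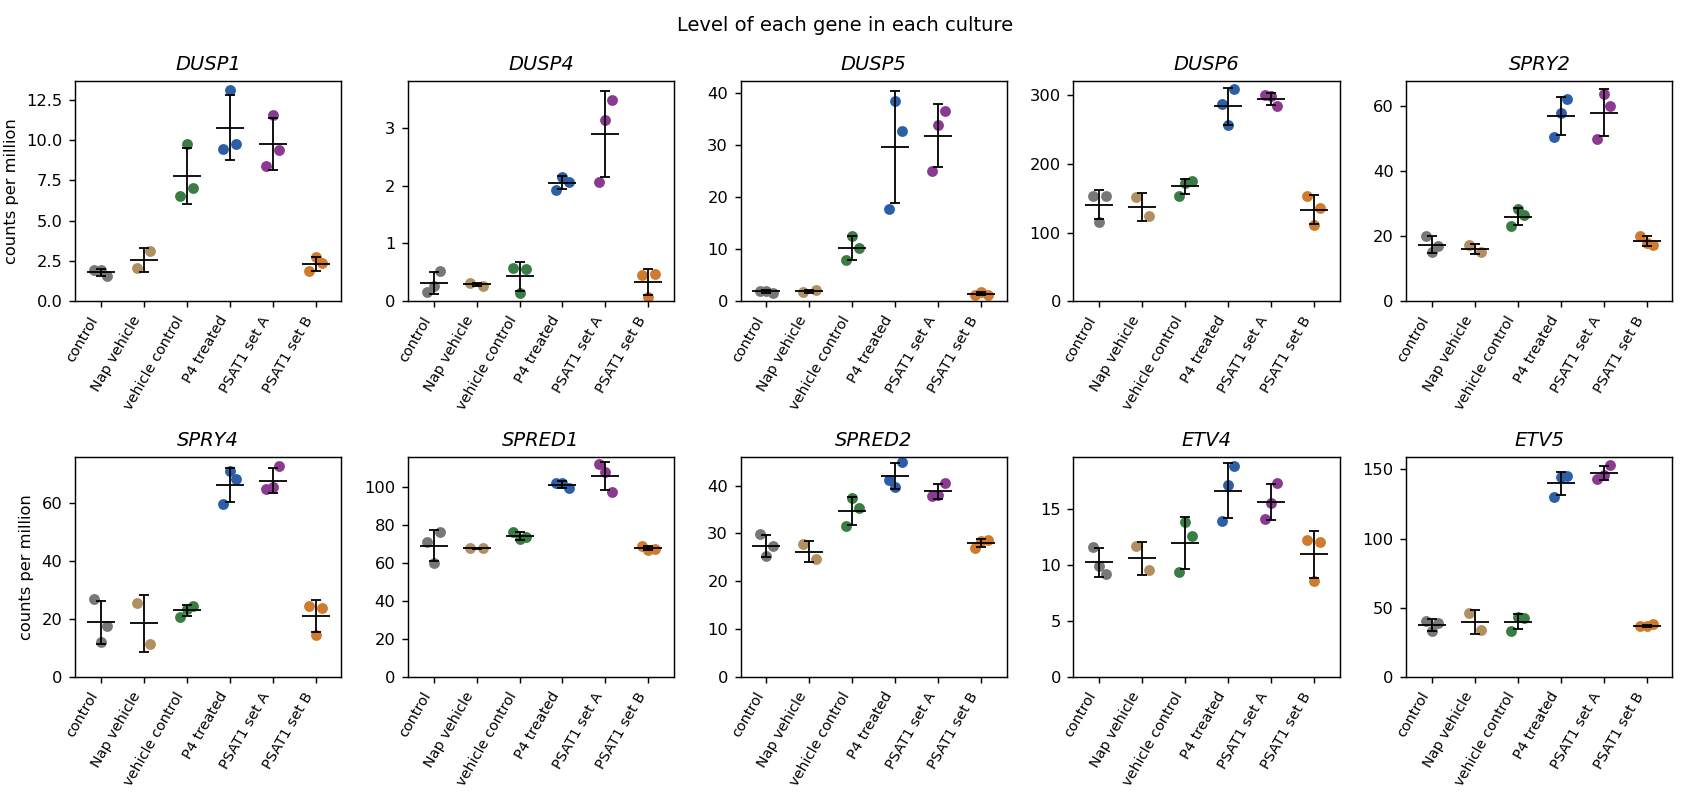
Level of the 10 feedback genes in each of the 17 cultures, in CPM on axes that start at 0. Each point is a culture, and the black dash and bars are the group mean and SD (n = 3, or 2 for Nap vehicle). P4 treated and PSAT1 set A cultures were high for all 10 genes, and DUSP1 and DUSP5 were also raised in the vehicle control.

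The comparison of P4 treated with vehicle control cultures asked how progesterone changed these transcripts. A gene was called when its adjusted p was under 0.05 in the quasi-likelihood test of edgeR, adjusted after Benjamini and Hochberg over all genes tested. Of the 10 genes 9 were called, all higher with P4, where 26.6% of the 16539 genes tested were called higher. DUSP4 passed the filter on low counts only through its P4 libraries, so it had to differ, and it is left out of the summary. Of the other 9 genes 8 were called, and 4 of them were also more than 1 log2 unit higher (DUSP5, SPRY2, SPRY4 and ETV5), against 5.34% of all genes. Their median log2 fold change was 0.75 beside -0.01 over all genes tested.

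ETV5, an ETS factor induced downstream of FGF and ERK signalling, showed the clearest change. It stood at 33.6, 43.4 and 42.4 CPM in the vehicle control cultures and at 130.4, 144.8 and 145.0 CPM with P4. No vehicle control culture came near the lowest P4 treated one. The log2 fold change was 1.78 (SE 0.09, adjusted p = 3.1e-08, edgeR). ETV4, its relative, moved far less, from 9.39, 13.9 and 12.6 CPM to 14.0, 17.1 and 18.9 CPM. Its groups were apart only by the gap between 13.87 and 13.95 CPM. The log2 fold change of ETV4 was 0.42 (SE 0.15, adjusted p = 0.031, edgeR). That call was lost without vehicle control replicate 1 (0.33, adjusted p = 0.091), without vehicle control replicate 3 (0.44, adjusted p = 0.075), without P4 treated replicate 3 (0.34, adjusted p = 0.14) and with upper-quartile scaling (0.33, adjusted p = 0.073).

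Both Sproutys rose. SPRY4 was between 20.7 and 24.5 CPM in the 3 vehicle control cultures and between 59.4 and 70.8 CPM in the 3 P4 treated ones, and SPRY2 went from 23.2, 28.3 and 26.4 CPM to 50.5, 57.9 and 62.1 CPM. Neither gene had overlapping groups. The log2 fold changes were 1.50 for SPRY4 (SE 0.10, adjusted p = 1.4e-07) and 1.10 for SPRY2 (SE 0.10, adjusted p = 2.8e-06, both edgeR). The Sprouty-related genes, which hold back RAF activation at the membrane, changed less. SPRED1 had 76.5, 72.6 and 73.5 CPM in the vehicle control and 102.2, 102.0 and 99.2 CPM with P4, a tight shift of 0.44 on the log2 scale (SE 0.07, adjusted p = 1.3e-04, edgeR). SPRED2 lay at 31.4, 37.3 and 35.3 CPM against 41.2, 39.6 and 45.0 CPM. Its groups did not overlap, and its log2 fold change was 0.25 (SE 0.09, adjusted p = 0.037, edgeR). The SPRED2 call did not hold without vehicle control replicate 1 (0.20, adjusted p = 0.11), vehicle control replicate 3 (0.25, adjusted p = 0.095) or P4 treated replicate 3 (0.20, adjusted p = 0.15), nor with upper-quartile scaling (0.16, adjusted p = 0.16) or DESeq2 (0.26, adjusted p = 0.067).

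Among the phosphatases, DUSP6 and DUSP5 act on ERK itself, in the cytoplasm and in the nucleus respectively. DUSP6 had 153.9, 172.1 and 175.2 CPM in the vehicle control and 286.3, 256.0 and 309.2 CPM with P4. The lowest P4 treated culture thus exceeded the highest vehicle control culture by a wide margin, at a log2 fold change of 0.75 (SE 0.08, adjusted p = 9.4e-06, edgeR). DUSP5 had 7.86, 12.5 and 10.2 CPM against 17.7, 38.4 and 32.7 CPM, so P4 treated replicate 1 was well below the other two. Its log2 fold change was 1.47 (SE 0.28, adjusted p = 0.0019, edgeR). DUSP4 (chr8:29333064-29350668), a nuclear phosphatase, rose from 3, 2 and 7 counts per library to 20, 25 and 27 counts, or from 0.43 ± 0.24 to 2.04 ± 0.11 CPM (SD, n = 3). Its log2 fold change of 2.36 (SE 0.40, adjusted p = 3.3e-04, edgeR) has a 95% interval from 1.50 to 3.22, which reflects these few counts. Because DUSP4 passed the filter only through its P4 libraries, this difference was fixed by the filter and is given as a description.

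DUSP1, a nuclear phosphatase known as an immediate early gene, was the member that missed the threshold. Its vehicle control cultures had 6.52, 9.74 and 7.01 CPM and its P4 treated cultures 9.43, 13.1 and 9.77 CPM. The groups overlapped, since vehicle control replicate 2 exceeded P4 treated replicate 1, and DUSP1 alone of the 10 genes overlapped in this comparison. Of the 9 genes other than DUSP4, 8 were completely separated with P4 higher, against 30.7% of all genes tested. The log2 fold change of DUSP1 was 0.42 (SE 0.18, 95% interval 0.02 to 0.81, adjusted p = 0.073, edgeR). It was called without vehicle control replicate 2 (0.64, adjusted p = 0.025), without P4 treated replicate 1 (0.49, adjusted p = 0.018), with no filter (0.43, adjusted p = 0.029) and with all 6 groups in the fit (0.43, adjusted p = 0.045).

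The vehicle control was then set against plain control cultures, to see what the vehicle did without P4. DUSP4 did not pass the filter here, with 2 to 7 counts in each library of both groups. Of the other 9 genes 4 were called, all higher in the vehicle control, against 11.9% of 16672 genes tested. The median log2 fold change of the 9 was 0.30, beside -0.01 over all genes tested.

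DUSP5 and DUSP1 changed most. DUSP5 rose from 1.99, 2.03 and 1.64 CPM in the control to 7.86, 12.5 and 10.2 CPM, a log2 fold change of 2.46 (SE 0.20, adjusted p = 1.2e-08, edgeR). DUSP1 rose from 1.94, 1.93 and 1.56 CPM to 6.52, 9.74 and 7.01 CPM, a log2 fold change of 2.11 (SE 0.21, adjusted p = 2.8e-07, edgeR). The lowest vehicle control culture was more than 3 times the highest control culture for each of them. SPRY2 rose from 20.2, 15.2 and 16.9 CPM to 23.2, 28.3 and 26.4 CPM, by 0.59 on the log2 scale (SE 0.11, adjusted p = 8.6e-04, edgeR). SPRED2 rose by 0.35 (SE 0.10, adjusted p = 0.011, edgeR), and this call was lost without vehicle control replicate 2 (0.29, adjusted p = 0.099) or replicate 3 (0.34, adjusted p = 0.057).

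DUSP6 lay close to the threshold. It had 153.1, 115.7 and 152.5 CPM in the control against 153.9, 172.1 and 175.2 CPM, which gave a log2 fold change of 0.26 (SE 0.09, adjusted p = 0.052, edgeR). It was called without control replicate 1 (0.33, adjusted p = 0.031), with no filter (0.23, adjusted p = 0.030), with at least 10 counts in every library (0.26, adjusted p = 0.050) and with upper-quartile scaling (0.27, adjusted p = 0.037). ETV5, which had the smallest adjusted p with P4, was at 40.5, 33.0 and 39.4 CPM in the control, which overlapped the vehicle control cultures. Its log2 fold change was 0.11 (95% interval -0.10 to 0.32, adjusted p = 0.45, edgeR). SPRED1 had 0.11 (95% interval -0.07 to 0.28) and ETV4 0.26 (95% interval -0.03 to 0.56).

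SPRY4 varied more among control cultures than any other of the 9 genes in relation to its level, with 26.7, 12.2 and 17.6 CPM. Its log2 fold change of 0.30 had a 95% interval from -0.49 to 1.09, and without control replicate 1 it was called at 0.66 (adjusted p = 0.0035, edgeR). Nap vehicle cultures were just as uneven for this gene, at 25.4 and 11.4 CPM. In both groups replicate 1 was the higher culture.

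Set side by side, the steps from control to vehicle control and from vehicle control to P4 had different sizes in different genes, with the vehicle control shared by both. DUSP1 went up 4.29-fold and then 1.39-fold in mean CPM, and DUSP5 went up 5.40-fold and then 2.91-fold. The mean ratios were 1.06 and then 3.52 for ETV5, 1.22 and then 2.88 for SPRY4, and 1.49 and then 2.19 for SPRY2. For SPRED2 they were close to each other, at 1.26 and then 1.21. The vehicle steps of ETV5 and SPRY4 and the P4 step of DUSP1 were not called. Whether the steps of a gene differ was not tested. With the control cultures as the reference for P4, 26.8% of 16619 genes were called higher. Leaving out DUSP4, which again passed the filter only through its P4 libraries, 9 of 9 feedback genes were called higher, and their log2 fold changes ran from 0.53 for SPRED1 to 3.93 for DUSP5.

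**Figure D2:**
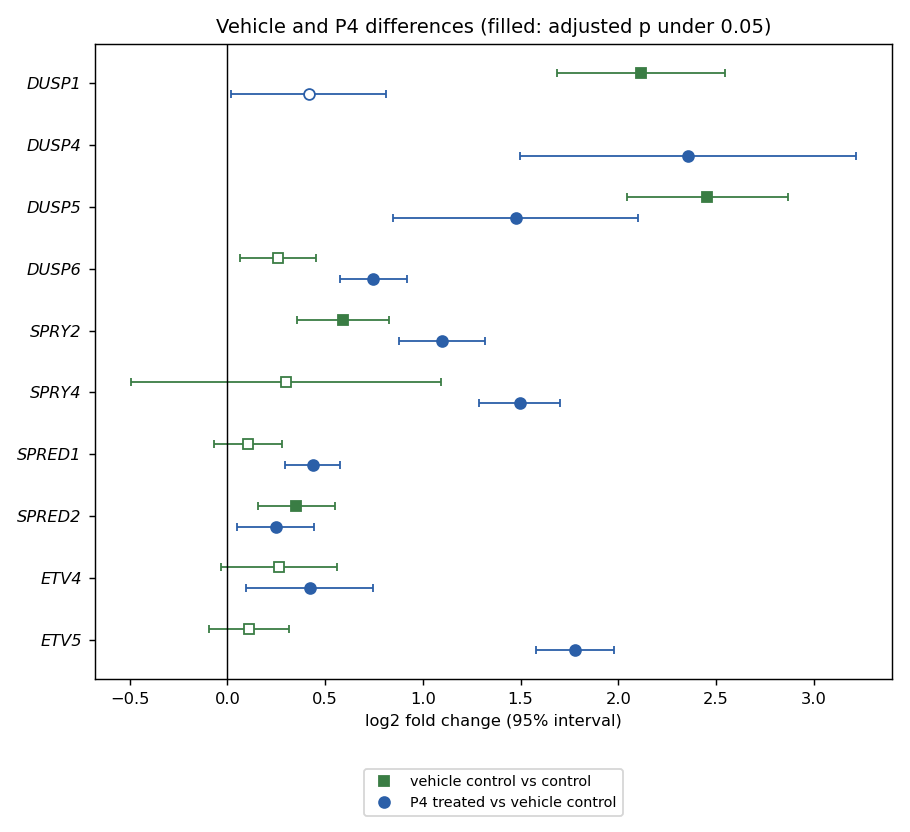
Log2 fold changes of the feedback genes with 95% intervals, green squares for vehicle control against control and blue circles for P4 treated against vehicle control; filled symbols have an adjusted p under 0.05 and DUSP4 was not tested in the former. DUSP1 (2.11) and DUSP5 (2.46) lie far right for the vehicle. For P4, ETV5 (1.78), SPRY4 (1.50) and DUSP5 (1.47) do so, as does DUSP4 (2.36), which passed the filter only through its P4 libraries.

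Nap alone was compared with the control (2 cultures against 3), and the vehicle control with Nap alone (3 against 2). Nap vehicle and control cultures gave no call in any of the 9 genes that passed the filter, and 0% of 17165 genes were called by edgeR. At an unadjusted p under 0.05 there were 215 genes, none of them among the 9, and DESeq2 called 1 gene, also not among them. Narrow intervals were found for SPRED1, at -0.02 (95% interval -0.23 to 0.19), and DUSP6, at -0.02 (-0.28 to 0.24). Wide ones were found for SPRY4, at -0.04 (-1.80 to 1.71), and DUSP1, at 0.51 (-0.06 to 1.08). The fit did not pair cultures by replicate number, and for SPRY4 replicate 1 was the highest culture in both groups.

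Against Nap alone the vehicle control was higher in 5 of the 9 genes tested, where 12.6% of 16997 genes were called higher. These were DUSP5 (2.43, SE 0.22), DUSP1 (1.62, SE 0.23), SPRY2 (0.71, SE 0.11), SPRED2 (0.43, SE 0.09) and DUSP6 (0.29, SE 0.08) on the log2 scale. DUSP1 had 2.05 and 3.09 CPM and DUSP5 1.73 and 2.15 CPM with Nap alone, all below the lowest vehicle control culture. DUSP6 was no longer called without vehicle control replicate 2 (0.27, adjusted p = 0.061), vehicle control replicate 3 (0.25, adjusted p = 0.061) or Nap vehicle replicate 2 (0.13, adjusted p = 0.19), or with all 6 groups in the fit (0.28, adjusted p = 0.17). SPRY4 was not called at 0.36 (95% interval -0.83 to 1.55), and the Nap vehicle pair decided it: it was called at 1.02 without replicate 1 (adjusted p = 6.1e-06, edgeR) and reversed to -0.14 without replicate 2. Where a single Nap vehicle culture is left, it is assumed to vary like the cultures of the other group.

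The 2 PSAT1 sets were compared with each other, with the P4 treated cultures and with the Nap vehicle cultures. All 10 genes were called higher in set A than in set B, where 30.7% of 16585 genes were called higher. DUSP4 passed the filter only through its set A libraries in this comparison, and without it 9 of 9 genes were called. DUSP5 was at 25.0, 33.8 and 36.6 CPM in set A and at 1.28, 1.74 and 1.24 CPM in set B, a log2 fold change of 4.46 (SE 0.18, adjusted p = 1.6e-13, edgeR). ETV5 was at 143.4, 146.2 and 153.1 CPM against 36.7, 36.8 and 38.0 CPM, and its log2 fold change was 1.96 (SE 0.07, adjusted p = 5.5e-15, edgeR). DUSP4 had 21 to 34 counts per library in set A and 1 to 8 in set B. The sets did not overlap in 9 of the 9 genes other than DUSP4, with set A higher, against 34.2% of all genes tested. Over the 7 stromal markers the sums were 129.6 to 159.4 CPM in set A and 428.6 to 645.8 CPM in set B, and 4 of the 5 tested were lower in set A (median log2 fold change -1.81). The 7 epithelial markers summed to 1196 to 1335 CPM in set A and 1439 to 1546 CPM in set B. Of these 7 markers, 5 were called lower and 1 higher in set A. Over all genes, 5248 of the 16585 tested were called lower in set A. The part of the stromal and epithelial markers in the differences between the sets, and between either set and the other groups, was not tested.

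The other 7 genes differed between the sets by less than DUSP5 and DUSP4. DUSP1 was 2.05 log2 units higher in set A (SE 0.19), SPRY4 1.66 (SE 0.16), SPRY2 1.63 (SE 0.10) and DUSP6 1.12 (SE 0.08). SPRED1 was 0.62 higher (SE 0.07), ETV4 0.48 (SE 0.14) and SPRED2 0.44 (SE 0.08). The largest adjusted p of the 10 was 0.0054, for ETV4 (edgeR).

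Between set A and the P4 treated cultures none of the 10 genes was called, with 0% of 15620 genes called by edgeR, 199 genes at an unadjusted p under 0.05 (none among the 10) and no gene called by DESeq2. DUSP6 had 299.4, 298.3 and 284.2 CPM in set A, inside the range of the P4 treated cultures. SPRY2 had 49.9, 63.8 and 60.1 CPM and SPRY4 64.7, 65.4 and 72.6 CPM, each overlapping P4. Differences were bounded to -0.09 to 0.22 for ETV5, -0.13 to 0.21 for DUSP6, -0.17 to 0.21 for SPRY4 and -0.22 to 0.25 for SPRY2 (95% intervals, log2 scale), which leave room for small differences. For DUSP4 the interval reached from -0.07 to 1.04, and for DUSP5 from -0.47 to 0.64.

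Set B stood apart from the P4 treated cultures in all 10 genes, each called lower, where 28.3% of 16881 genes were called lower. DUSP4 passed the filter there only through its P4 libraries, and without it 9 of 9 genes were called. The log2 fold changes ran from -0.56 for SPRED1 (SE 0.07, adjusted p = 1.7e-05, edgeR) to -4.37 for DUSP5 (SE 0.30, adjusted p = 4.1e-07, edgeR).

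Relative to Nap vehicle cultures the sets changed places. Set A was called higher for all 10 genes, where 29.1% of 16582 genes were called higher. Without DUSP4, which passed the filter only through set A, 9 of 9 genes were called. The other genes had log2 fold changes from 0.55 for ETV4 (SE 0.15) and SPRED2 (SE 0.10) to 3.99 for DUSP5 (SE 0.20). The ETV4 call was lost without Nap vehicle replicate 2 (0.41, adjusted p = 0.076), a fit that again rests on 1 Nap vehicle culture. SPRY4, at 1.88 (SE 0.38, adjusted p = 0.021, edgeR), missed the threshold without set A replicate 1 (1.90, adjusted p = 0.067), replicate 2 (1.90, adjusted p = 0.053) or replicate 3 (1.82, adjusted p = 0.085). For set B against Nap vehicle no feedback gene was called among the 9 tested by edgeR or DESeq2, none had an unadjusted p under 0.05, and 0.0115% of 17398 genes were called. Intervals for set B were -0.13 to 0.15 for SPRED1, -0.32 to 0.14 for ETV5 and -1.07 to 0.15 for DUSP5, from a fit that did not pair cultures by replicate number.

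**Figure D3:**
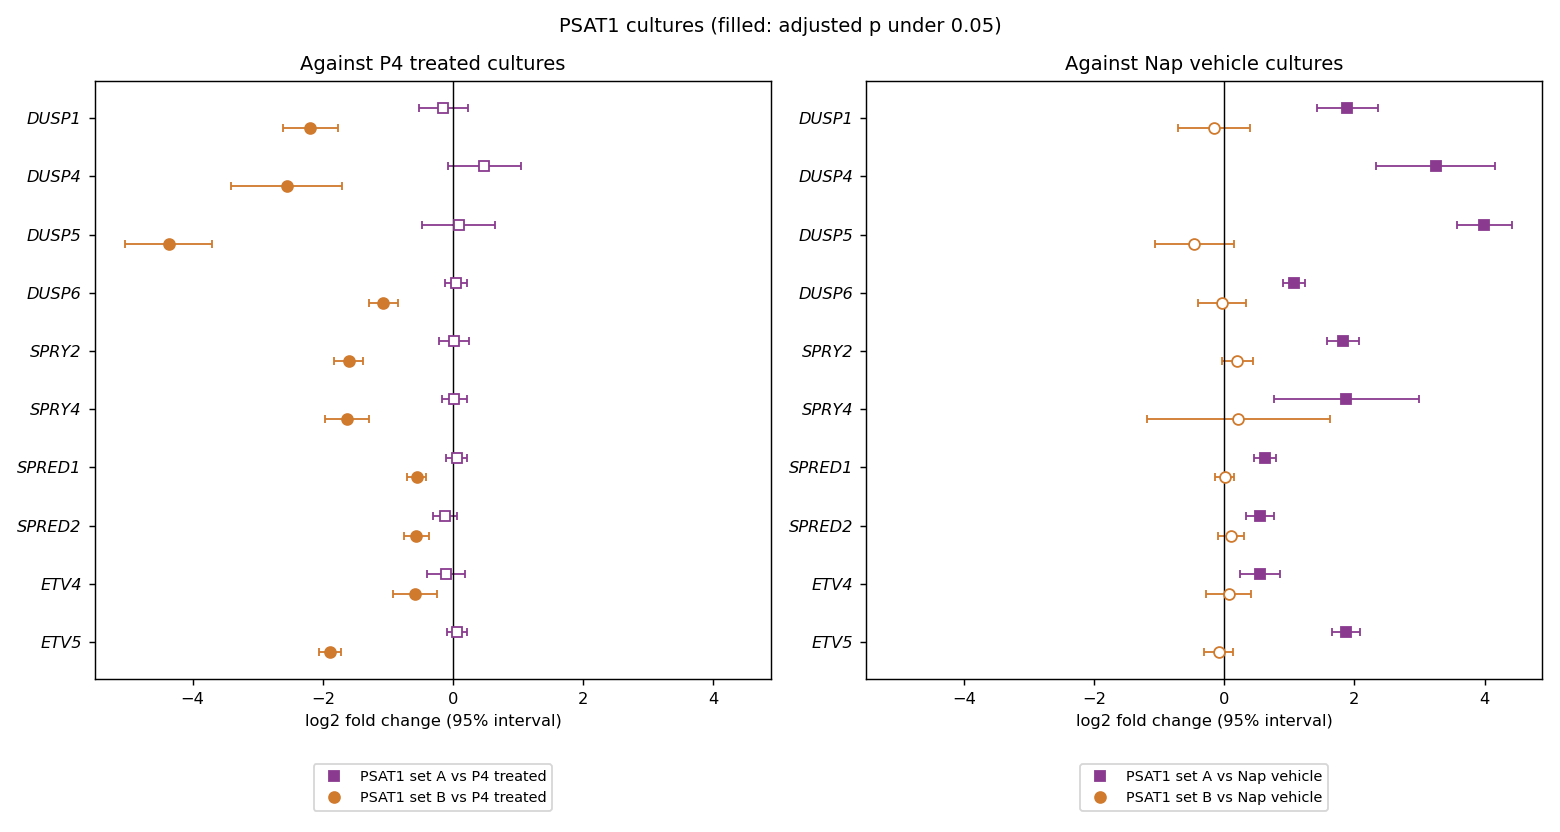
Log2 fold changes with 95% intervals of PSAT1 set A (purple squares) and set B (orange circles) against P4 treated cultures (left) and Nap vehicle cultures (right); filled symbols have an adjusted p under 0.05. Set A lies around 0 on the left and right of 0 on the right, and set B does the opposite, with DUSP5 at -4.37 against P4.

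Other genes of the pathway were described by fixed lists, also chosen with earlier results of these data known. Over all genes tested 26.6% were called higher and 26.5% lower with P4, and the counts of each list are to be read against these shares. Among 5 other MAP kinase phosphatases tested (DUSP10 was too low), 2 rose and 2 fell with P4. DUSP16 and DUSP8, which act mainly on the stress kinases JNK and p38, rose by 1.31 (SE 0.12, adjusted p = 2.0e-06, edgeR) and 2.06 (SE 0.32, adjusted p = 1.7e-04, edgeR). DUSP8 rested on 4 to 25 counts per library in the vehicle control, too few for the fit that requires 10 counts in every library. DUSP7, an ERK phosphatase, and DUSP2, a nuclear one, had log2 fold changes of -0.49 (SE 0.16, adjusted p = 0.020) and -0.58 (SE 0.20, adjusted p = 0.029, edgeR). Both of these calls were lost with DESeq2 (adjusted p = 0.061 for DUSP7 and 0.060 for DUSP2). With single cultures left out, DUSP7 was not called without vehicle control replicate 2 (adjusted p = 0.050), vehicle control replicate 3 (0.11) or P4 treated replicate 2 (0.070). DUSP2 lost its call without vehicle control replicate 1, 2 or 3 (adjusted p = 0.073, 0.075 and 0.083) and without P4 treated replicate 2 or 3 (0.097 for each), and against the control cultures it was higher with P4 by 1.25.

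Of 14 other brakes on receptor and RAS signalling that were tested, 7 rose and 3 fell, beside 26.6% higher and 26.5% lower over all genes. ERRFI1, an inhibitor of the EGF receptor, went from between 21.1 and 26.9 CPM in the vehicle control to between 90.1 and 122.8 CPM with P4, a log2 fold change of 2.23 (SE 0.13, adjusted p = 6.5e-08, edgeR). RASA2, a GTPase activator of RAS, rose by 0.53 (SE 0.08). PEBP1, which binds RAF, fell by 0.50 (SE 0.09) and LRIG3 fell by 0.45 (SE 0.08). The paralogues SPRY1 (0.11, adjusted p = 0.27) and SPRED3 (-0.46, adjusted p = 0.15, edgeR) were not called, and SPRY3 was too low to test.

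Upstream of the cascade, 4 of 11 receptor tyrosine kinases rose and 3 fell, shares near those over all genes (26.6% higher, 26.5% lower). EGFR rose from between 74.0 and 82.8 CPM to between 195.3 and 289.6 CPM, by 1.63 on the log2 scale (SE 0.12, adjusted p = 8.6e-07, edgeR), and FGFR1 by 0.67 (SE 0.07). ERBB2 fell by 0.62 (SE 0.07) and FGFR2 by 0.62 (SE 0.10). Of 8 receptor ligands tested, 4 rose and none fell. FGF18 rose by 1.12 (SE 0.10, adjusted p = 1.8e-06, edgeR) and FGF2 by 1.49 (SE 0.15, adjusted p = 7.6e-06, edgeR), the latter from between 7.97 and 10.2 CPM to between 19.9 and 28.6 CPM. In the core of the cascade 10 of 19 genes rose and 2 fell. RPS6KA2, a kinase activated by ERK, rose by 1.42 (SE 0.08, adjusted p = 4.3e-08, edgeR), and KSR1, a scaffold of RAF and MEK, by 1.35 (SE 0.15). HRAS fell by 0.51 (SE 0.12).

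Of 12 other ETS factors, 3 rose and 6 fell with P4. ETS1 rose by 0.96 (SE 0.16) and GABPA by 0.52 (SE 0.09), whereas the epithelial factors ELF3 and EHF fell by 1.82 (SE 0.14) and 1.42 (SE 0.18). Medians of these lists lay at 0.32 for the phosphatases, 0.36 for the brakes, -0.13 for the receptors, 0.55 for the ligands, 0.19 for the core and -0.11 for the ETS factors, beside -0.01 over all genes tested.

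Genes that ERK induces, other than the 10, moved both ways with P4. Of 19 tested, 5 rose and 9 fell against the vehicle control, where 26.6% of all genes were called higher and 26.5% lower, and the median log2 fold change was -0.26. EPHA2 rose by 0.81 (SE 0.09, adjusted p = 1.2e-05, edgeR) and MYC by 0.60 (SE 0.07, adjusted p = 3.2e-05, edgeR). EGR3, a zinc finger factor of the immediate early class, fell by 2.44 (SE 0.15, adjusted p = 9.1e-08, edgeR), and CCND1, the cyclin of early G1, fell by 1.16 (SE 0.10, adjusted p = 1.5e-06, edgeR). EGR3 was at 40.6 to 50.3 CPM in the vehicle control and at 7.13 to 11.2 CPM with P4, yet both lay above the control at 2.53 to 3.72 CPM, so with the control as reference its P4 difference reversed to 1.42.

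In the vehicle control against the control the same list had 11 of 19 genes higher and 1 lower, where 11.9% of all genes were called higher and 10.7% lower, with a median of 0.78 beside -0.01 over all genes. FOS, FOSB, EGR1 and JUN were picked here after their values were seen. FOS was at 0.97 to 1.56 CPM in the control and at 116.1 to 124.4 CPM in the vehicle control, a log2 fold change of 6.42 (SE 0.12, adjusted p = 9.6e-21, edgeR). FOSB had a log2 fold change of 7.08 (SE 0.22), EGR1 of 4.89 (SE 0.26) and JUN of 4.08 (SE 0.16). With Nap alone FOS stood at 1.57 to 2.28 CPM, near the control, and with P4 at 86.8 to 116.4 CPM. PSAT1 set A had 93.8 to 114.7 CPM of FOS and set B 1.00 to 1.53 CPM. FOS thus had its low level in the same 3 groups in which DUSP1 and DUSP5 were low. Unlike DUSP1 and DUSP5, FOS had a negative log2 fold change with P4 (-0.27, SE 0.10, adjusted p = 0.034, edgeR).

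**Figure D4:**
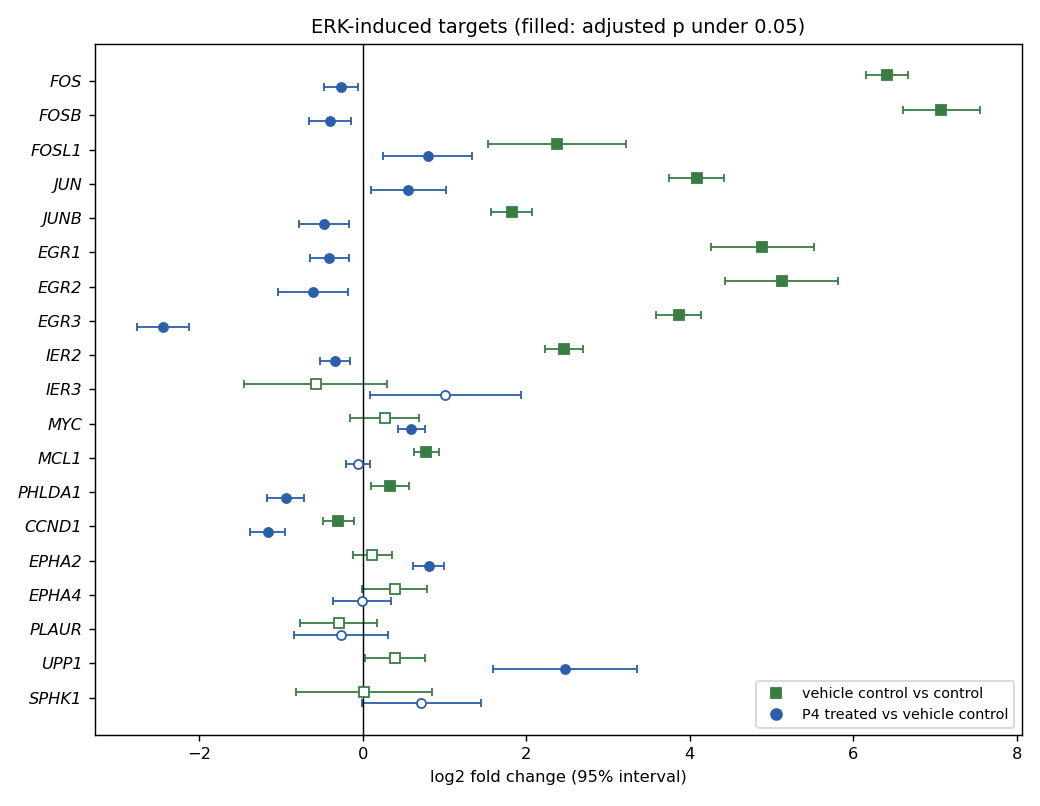
Log2 fold changes with 95% intervals of 19 other ERK-induced genes, green squares for vehicle control against control and blue circles for P4 treated against vehicle control; filled symbols have an adjusted p under 0.05. The FOS, JUN and EGR genes lie between 1.82 and 7.08 for the vehicle and near or left of 0 for P4, except FOSL1 (0.79) and JUN (0.56).

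Over the 17 libraries the 10 genes varied together, which describes shared groups as much as shared cultures. Pearson's r of log2 CPM between members ranged from 0.71 for DUSP1 with DUSP4 to 0.97 for DUSP6 with SPRY2, and DUSP1 with DUSP5 had 0.96. DUSP1 had 6 of the 10 lowest values, with DUSP4, ETV4, SPRY4, ETV5, SPRED1 and DUSP6. The libraries form groups and share treatments, so no p is given.

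Genes whose pattern was most like a member's were named in the same way, out of 18229 others. Most like DUSP6 were CLDN1 (r = 0.99), AMIGO2 (0.99), AJUBA (0.98), KCNQ5 (0.98) and RAPGEF3 (0.98), and AMIGO2 was also most like SPRY4 (0.99). ETV5 was closest to CLIP4 (0.995), PLCG2 (0.995), MAP1B (0.994), SLC7A2 (0.993) and RNF144B (0.993). The nearest pattern to DUSP1 was that of KDM6B (0.98), a histone demethylase gene, and to DUSP5 that of EIF1 (0.99), a translation initiation factor gene. TPCN1 was nearest to SPRY2 (0.99), PDZD8 to SPRED1 (0.99), CDCP1 to SPRED2 (0.98), NOMO2 to ETV4 (0.94) and AC110597.1 to DUSP4 (0.96).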

How the data were processed

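Counts per gene were measured in 17 Ishikawa cultures from stranded total RNA libraries. The authors trimmed reads with Cutadapt, aligned them with Subread and deposited raw whole-number counts per gene, made by featureCounts on GENCODE release 31, and used DESeq2 for their own tests. Tool versions and the strand setting are not given in the sources used here. All 17 columns were matched to samples by name, and 0 were left out. GENCODE 29 (GRCh38) gave symbols and exon lengths, and 43963 of the 60662 gene versions in the table matched it. A list of gene names gave symbols for another 2054 genes and 21 had none.

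Each comparison used edgeR 4.0.16 in R 4.3.3 (TMM scaling, filterByExpr with a minimum count of 10, robust quasi-likelihood fit) on the compared groups alone, with Benjamini-Hochberg adjustment over all genes tested. CPM values shown use TMM factors over all 17 libraries, and RPKM divides them by exon length. The standard error is the log2 fold change divided by the root of its F statistic, and 95% intervals use the fit's degrees of freedom. Likeness between genes is Pearson's r of log2 CPM with a prior count of 2. The statistics were checked on simulated counts. Tables and plots used Python 3.11.15, numpy 2.4.6, pandas 2.3.3 and matplotlib 3.10.9.

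Alternatives were RLE and upper-quartile scaling, DESeq2 1.42.0, no filter, at least 10 counts in every library, fits of all 6 groups at once, replicate numbers as a block, omission of each replicate in turn, and the control as reference for P4. A cutoff of 1 on the absolute log2 fold change was taken from the study's methods. Library totals of 4999521 to 19704493 set the precision: 3 counts over the library total equal 0.60 CPM in the smallest library and 0.15 CPM in the largest. The 10 genes, the lists of pathway genes and markers and the motifs were chosen with earlier results of these data known. Besides the 10 genes, the text names from each list 2 genes per direction by adjusted p with P4 against vehicle control, and the genes of highest likeness; others are said to be chosen after their values were seen, or give the result of a close relative. A gene that the rule selects is left unreported here. The 6 PSAT1 cultures have contradictory labels and were used as 2 sets without a P4 direction.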

Additional observations from a re-analysis of the deposited data

How the results depend on the processing

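The number of feedback genes called stayed within 1.5 times the main count in every comparison under the alternatives run. It was 9 (7 to 10 over 14 alternatives) for P4 treated against vehicle control, 4 (3 to 6) for vehicle control against control and 5 (4 to 6) for vehicle control against Nap vehicle. It was 10 (9 to 10) for PSAT1 set A against set B, for set B against P4 treated and for set A against Nap vehicle, where 9 arose from DUSP4 not being testable at 10 counts in every library, or from SPRY4 or ETV4. It was 0 throughout for Nap vehicle against control, set A against P4 treated and set B against Nap vehicle. The main counts of 9 and 10 include DUSP4, which passed the filter only through the higher group, and are 8 and 9 without it. Of 741 refitted fold changes of single feedback genes in the other 6 comparisons, 704 kept direction and side of the threshold, 19 lost the call, 14 gained it and 4 reversed. The reversals were all in vehicle control against Nap vehicle, for ETV5 without vehicle control replicate 2 (-0.03), vehicle control replicate 3 (-0.01) or Nap vehicle replicate 2 (-0.18), and for SPRY4 without Nap vehicle replicate 2 (-0.14, against 1.02 without replicate 1). With the control as the reference, 2 listed genes also reversed, DUSP2 to 1.25 and EGR3 to 1.42. Upper-quartile scaling moved the median of all genes from -0.01 to -0.10 for P4 treated against vehicle control, and all 10 feedback genes remained higher there.

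The deviations of same-numbered cultures from their group means were correlated over genes. In none of the 5 comparisons with 3 pairs was every pair above 0.1 (means -0.042 to 0.080, with 0.017 for P4 treated against vehicle control and 0.038 for vehicle control against control), so the numbers were not taken to pair cultures. The 4 comparisons with Nap vehicle have 2 pairs each. Both pairs were above 0.1 for Nap vehicle against control (0.206 and 0.24, mean 0.223). The same held for set B against Nap vehicle (0.158 and 0.177, mean 0.167). The main fits did not pair cultures there, and with the replicate block no feedback gene was called in either. The mean was 0.079 for vehicle control against Nap vehicle and -0.014 for set A against Nap vehicle. With the replicate block, 10 feedback genes instead of 9 were called for P4 (DUSP1 at 0.45, adjusted p = 0.017, edgeR), 5 instead of 4 for the vehicle control against control (DUSP6 at 0.27, adjusted p = 0.016, edgeR) and 6 instead of 5 against Nap vehicle (SPRY4 at 0.43, adjusted p = 0.0059, edgeR). In the first pair of these Nap vehicle comparisons the block moved the genes called over the whole table, from 0 to 41 for Nap vehicle against control and from 2 to 112 for set B against Nap vehicle. Other moves of that count beyond 1.5 times concerned vehicle control against control, 3763 with all cultures and 2038 or 1908 without vehicle control replicate 2 or 3. For vehicle control against Nap vehicle it was 4027, but 2268 with DESeq2, 2310 with all 6 groups and 2355 or 2471 without vehicle control replicate 2 or 3. For set B against Nap vehicle it was 81 with no filter and 79 without set B replicate 1. The cause was not tested. Gene lengths from the count table could not be tried in place of annotated exon lengths, since that table holds none.

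Depth limits DUSP4 most, with 1 to 8 counts per library outside the P4 treated cultures and set A, and limits DUSP1 and DUSP5 in the control, Nap vehicle and set B cultures, with 20 to 46 counts.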
